A study of Homo sapiens with 4 samples.

Results

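The SRC family kinases and CSK, the kinase that holds them in check, were followed at the RNA level in imatinib-sensitive and imatinib-resistant leukaemia cells. The members were chosen by name as SRC, LYN, FYN, YES1, LCK, FGR, BLK and CSK. Of these 8 genes, 7 had a row among the 32673 genes of the expression table, and BLK was not analysed here. A mean level of at least 0.5 FPKM (a fragment number corrected for the size of the gene and the depth of the library) was reached by 5 of them, SRC, LYN, FYN, YES1 and CSK, which were tested together with all 15519 genes that passed this filter. LCK and FGR stayed under it and are given as levels.

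RNA sequencing compared 2 libraries of TF1-BA cells with 2 libraries of TF1-BAR cells. TF1 is a human erythroleukaemia cell line that grows in granulocyte-macrophage colony-stimulating factor, and TF1-BA cells, which are sensitive to imatinib, were infected with a retrovirus that expresses the p210 form of BCR-ABL. TF1-BAR cells were derived from them by continuous imatinib treatment and are resistant. Each library came from 10000000 cells. By the labels, both lines were cultured with 2 ng/mL granulocyte-macrophage colony-stimulating factor and 10% serum, and 2 μM imatinib was added to the culture of the resistant cells. The study's methods give a higher concentration of the growth factor for these lines, and which value held for the libraries is not known. No source used here says if the cells were still in the drug at RNA extraction, so that exposure to imatinib cannot be told apart from resistance. The resistant libraries are titled as vector libraries, and an effect of a control vector, if the cells carried one, cannot be told apart either. Each line is a single derivation, and no source says that its 2 libraries came from separate cultures, so that p-values measure the spread between these libraries, which may be technical.

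SRC family kinases are tyrosine kinases that are anchored at the inner face of the plasma membrane by a fatty acid and carry signals from receptors without kinase activity of their own. An SH3 and an SH2 domain precede the kinase domain and bind back onto it when a tyrosine in the tail is phosphorylated, a state that keeps the kinase inactive. CSK phosphorylates this tail tyrosine, and phosphatases such as PTPRA and PTPRC remove the phosphate. Imatinib inhibits ABL, KIT and platelet-derived growth factor receptors but spares SRC family kinases, while dasatinib and bosutinib inhibit both ABL and SRC family kinases, and LYN is known as a partner of BCR-ABL in myeloid leukaemia.

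The libraries held 15465497 to 18042299 fragments, and the 4 genes GATA1, TFRC, KLF1 and CSF2RB, which define erythroid cells and the receptor of the growth factor, were expressed in all of them. Of 13 genes fixed as markers of TF1 identity, 13 passed the filter, with a summed level of 622 to 630 FPKM in TF1-BA and 709 to 737 FPKM in TF1-BAR. Bulk RNA cannot tell fewer cells that express a gene from less RNA of that gene per cell.

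In TF1-BA cells, YES1 was the most abundant member and made up most of the SRC family RNA. In TF1-BAR cells its RNA was 2.38-fold lower, SRC RNA was 1.91-fold higher, and LYN had become the most abundant member. By the test across all genes (limma, adjusted p under 0.05), 1 member rose (SRC), 1 fell (YES1) and 3 did not pass (LYN, FYN and CSK). Of all genes tested, 16.3% rose and 10.5% fell by this rule. With a change of at least 2-fold required as well, only YES1 was called among the 5 tested members, while 3.05% of all genes were called higher and 1.69% lower in TF1-BAR. The libraries of the 2 lines did not overlap for 3 of 5 tested members, as for 69.3% of all genes tested. The median log2 fold change of the 5 members was 0.15, and that of all tested genes was 0.07.

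**Figure D1:**
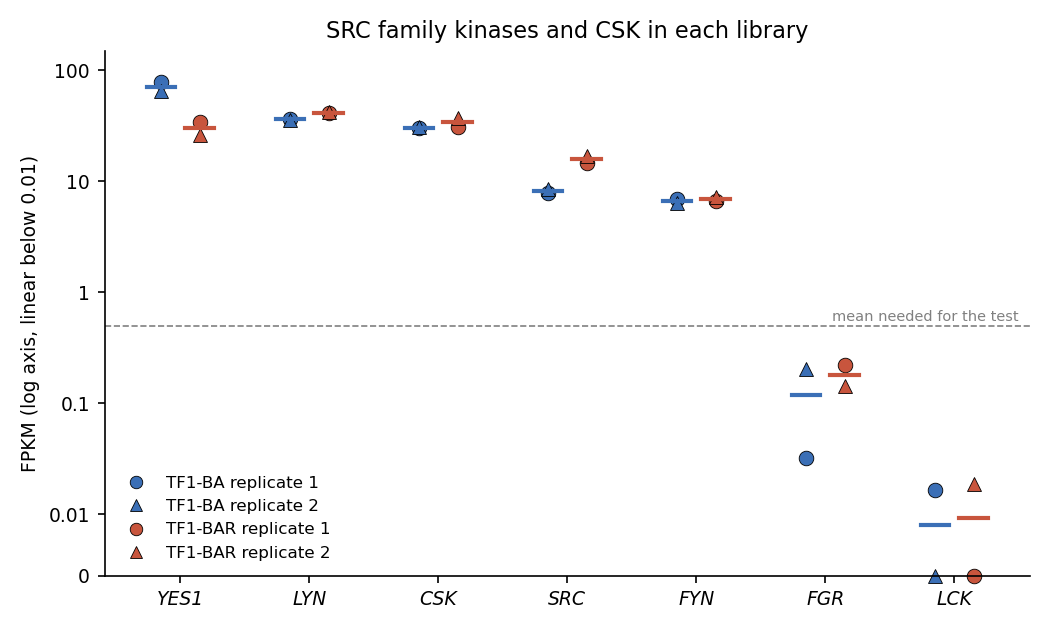
FPKM of each member on a log axis, 1 point per library, with the mean of each line as a bar and the level needed for the test as a dashed line. YES1 lies lower in both TF1-BAR libraries (25.9 and 34.0 FPKM) than in both TF1-BA libraries (64.4 and 78.0 FPKM), SRC lies higher in both, and FYN and CSK overlap.

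YES1 (ENSG00000176105, minus strand of chromosome 18, 721588 to 812546, GRCh38) encodes a widely expressed SRC family kinase that is closely related to SRC. Its level was 78.0 and 64.4 FPKM in TF1-BA replicates 1 and 2 and 34.0 and 25.9 FPKM in TF1-BAR replicates 1 and 2, from 7177, 5077, 2734 and 2125 fragments. Both resistant libraries lay under both sensitive libraries, and the lowest sensitive library was well above the highest resistant one. The mean was 71.2 FPKM ± 9.64 (SD, n = 2) in TF1-BA and 30.0 FPKM ± 5.72 (SD, n = 2) in TF1-BAR. YES1 RNA fell by 1.24 on the log2 scale of FPKM + 0.5, with a standard error of 0.161, a 95% interval from −1.65 to −0.83 and an adjusted p of 0.0103 (limma, Benjamini-Hochberg over all genes tested). Only 1.16% of the tested genes had a log2 fold change at or under that of YES1.

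The YES1 call depended on single libraries. Without TF1-BA replicate 1 the log2 fold change was −1.10 (limma adjusted p = 0.0748), without TF1-BA replicate 2 it was −1.38 (limma adjusted p = 0.0613), and without TF1-BAR replicate 2 it was −1.05 (limma adjusted p = 0.0507). Without the filter on low genes its adjusted p was 0.0539 in the same test, whereas limma voom on the recovered fragments gave 3.92e-06. The processed pseudogene YES1P1, which resembles YES1 and could take some of its reads, had at most 0.039 FPKM and was listed at 0 in 3 of the libraries. The row of AP001020.3 on the opposite strand inside YES1 held at most 0.717 FPKM.

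SRC (ENSG00000197122, plus strand of chromosome 20, 37344685 to 37406050) is the founding member of the family and acts downstream of integrins and growth factor receptors. It was measured at 7.87 and 8.56 FPKM in TF1-BA and at 14.5 and 17.0 FPKM in TF1-BAR, from 918, 856, 1476 and 1763 fragments. Both resistant libraries lay above both sensitive libraries. The mean rose from 8.21 FPKM ± 0.489 (SD, n = 2) to 15.7 FPKM ± 1.75 (SD, n = 2). The log2 fold change was 0.89 with a standard error of 0.104, a 95% interval from 0.63 to 1.16 and a limma adjusted p of 0.00863, so that SRC passed the test but stayed under the 2-fold threshold. The change of SRC was at percentile 95.1 of the tested genes. Without TF1-BA replicate 1 the limma adjusted p was 0.0751 at a log2 fold change of 0.84, and without TF1-BA replicate 2 it was 0.0685 at 0.95. Without TF1-BAR replicate 1 the log2 fold change of SRC was 1.00, and SRC was then called as well.

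LYN (ENSG00000254087, plus strand of chromosome 8, 55879813 to 56014168) is the SRC family kinase of B cells, mast cells and myeloid cells and transmits signals from the high-affinity IgE receptor and from KIT. LYN RNA was 36.5 and 35.8 FPKM in TF1-BA and 41.1 and 41.7 FPKM in TF1-BAR. The libraries did not overlap, but the step between the lines was small. From 36.1 FPKM ± 0.559 (SD, n = 2) to 41.4 FPKM ± 0.416 (SD, n = 2), the log2 fold change was 0.19 (standard error 0.0584, 95% interval from 0.04 to 0.34) and did not pass the test (limma adjusted p = 0.0679). It passed after rescaling to TPM, with a log2 fold change of 0.26 (limma adjusted p = 0.0328), which was 1 of 15 alternatives.

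FYN (ENSG00000010810, minus strand of chromosome 6, 111660332 to 111873452), a broadly expressed kinase with roles in T cells and the nervous system, was measured at 6.87 and 6.4 FPKM in TF1-BA and at 6.64 and 7.19 FPKM in TF1-BAR. The lines overlapped. Its log2 fold change was 0.06 (standard error 0.0861, limma adjusted p = 0.663) and took the other sign when the libraries were scaled by their upper quartile (−0.03). The 95% interval, from −0.17 to 0.28, leaves out a 2-fold change in either direction.

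The members that mark lymphocytes and mature myeloid cells were near 0. LCK (ENSG00000182866, plus strand of chromosome 1, 32251239 to 32286165), the kinase of the T cell receptor, had 1 and 0 fragments in TF1-BA and 0 and 1 fragments in TF1-BAR, under a floor of 3 fragments, and no fold change is given. FGR (ENSG00000000938, minus strand of chromosome 1, 27612064 to 27635277), which is found in neutrophils, monocytes and NK cells, had 2 and 11 fragments in TF1-BA and 12 and 8 fragments in TF1-BAR, that is 0.0319, 0.205, 0.219 and 0.143 FPKM. The FGR libraries overlapped, and neither line was separated from the other. Fragment numbers were recovered from the FPKM values and cover counting error only. For genes not whole at their annotated length they are the smallest whole numbers found, and the true numbers can be larger.

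The levels of the cell type markers fixed beside the members are given here because LCK, FGR and LYN differ between blood cells. Of the 11 T cell markers, 8 had a row in the expression table and 1 passed the filter, CD3D, a chain of the T cell receptor complex. It had 19.2 and 20.7 FPKM in TF1-BA and 5.74 and 6.36 FPKM in TF1-BAR, where it fell by 1.64 in log2 (limma adjusted p = 0.00282). The T cell list summed to 19.9 to 21.5 FPKM in TF1-BA and 6.46 to 7.54 FPKM in TF1-BAR, while CD3E held at most 1 fragment and CD2 at most 2 in any library. Of the 10 monocyte and neutrophil markers, 7 had a row in the expression table and 1 passed the filter (LYZ). The list summed to 14.3 to 15.5 FPKM in TF1-BA and 16.7 to 17.4 FPKM in TF1-BAR. CD14 had at most 0.0673 FPKM and S100A9 at most 0.108 FPKM. Of the 7 B cell markers, 6 had a row, 4 passed the filter and 3 rose, CD79A, CD79B and CD22. The B cell list summed to 7.78 to 8.41 FPKM in TF1-BA and 15 to 15.4 FPKM in TF1-BAR, and PAX5, the defining B cell factor, held 13 to 20 fragments. Of the 6 platelet markers, 4 had a row, 3 passed the filter and all 3 rose. Their list summed to 136 to 145 FPKM in TF1-BA and 188 to 211 FPKM in TF1-BAR, while PPBP held at most 2 fragments. Of all genes tested, 16.3% rose and 10.5% fell. The part of these marker differences in the changes of SRC and YES1 was not tested.

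CSK (ENSG00000103653, plus strand of chromosome 15, 74782057 to 74803198), the inhibitory kinase, was measured at 30.0 and 30.8 FPKM in TF1-BA and at 30.6 and 37.3 FPKM in TF1-BAR. TF1-BAR replicate 1 lay between the sensitive libraries, and TF1-BAR replicate 2 was higher than all others. The log2 fold change was 0.15 with a standard error of 0.107 and a 95% interval from −0.13 to 0.43 (limma adjusted p = 0.339), and it ranged from 0.01 to 0.29 when single libraries were left out. The row of MIR4513, a microRNA gene on the opposite strand inside CSK, held at most 2.58 FPKM.

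Because FPKM are scaled to length, the levels of the members can be set side by side within a library. In TF1-BA the order was YES1, LYN, CSK, SRC and FYN, and the libraries of each neighbouring pair were apart. In TF1-BAR the order was LYN, CSK, YES1, SRC and FYN. There CSK (30.6 to 37.3 FPKM) and YES1 (25.9 to 34.0 FPKM) overlapped, and the other neighbours were apart. FGR and LCK lay under FYN in every library, and their few fragments set no order between them. Among all tested genes, the level of YES1 went from percentile 96.9 to 91.3 and that of SRC from percentile 66.7 to 81.4, while LYN was at 93.1 and 94.0, CSK at 91.3 and 92.4 and FYN at 60.9 and 60.8.

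The summed RNA of the 6 measured SRC family kinases was 129 and 115 FPKM in TF1-BA and 96.4 and 91.9 FPKM in TF1-BAR. Both resistant libraries were lower. Without YES1, the sum was 51.3 and 50.9 FPKM in TF1-BA and 62.4 and 66.0 FPKM in TF1-BAR, and both resistant libraries were higher. YES1 took 60.3% and 55.8% of the family sum in TF1-BA and 35.3% and 28.2% in TF1-BAR. LYN took 28.3% and 31.0% in TF1-BA and 42.6% and 45.3% in TF1-BAR, the largest share in the resistant line. The share of SRC was 6.08% and 7.42% in TF1-BA and 15% and 18.4% in TF1-BAR, and that of FYN was 5.31% and 5.55% against 6.89% and 7.83%. The shares add up to a whole within a library, so that a lower YES1 raises the others. With 2 libraries against 2, the exact two-sided permutation test cannot give a p under 0.333, which was the value for each of these sums and shares.

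**Figure D2:**
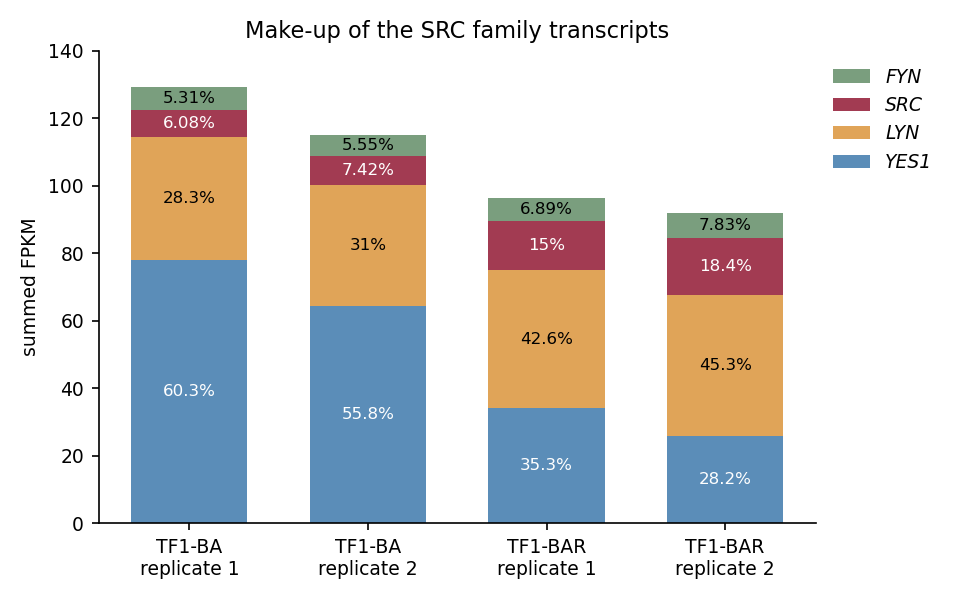
Summed FPKM of the SRC family kinases in each library, stacked by kinase, with each kinase's percent of the sum written in its block. The YES1 block shrinks from 60.3% and 55.8% in the TF1-BA libraries to 35.3% and 28.2% in the TF1-BAR libraries, where LYN has the largest share.

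Ratios between members within a library do not depend on the scaling of that library. The YES1 to SRC ratio was 9.92 and 7.52 in TF1-BA and 2.35 and 1.53 in TF1-BAR. The YES1 to LYN ratio was 2.13 and 1.80 in TF1-BA and 0.828 and 0.622 in TF1-BAR, so that LYN exceeded YES1 in both resistant libraries and in neither sensitive one. The SRC to LYN ratio was 0.215 and 0.239 in TF1-BA and 0.352 and 0.407 in TF1-BAR.

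CSK was set against the kinases it phosphorylates. Its share of the summed members was 18.8% and 21.1% in TF1-BA and 24.1% and 28.9% in TF1-BAR, a difference of 6.53 percentage points between the means of 20% ± 1.6 and 26.5% ± 3.38 (SD, n = 2 each; exact permutation p = 0.333, the smallest possible). The groups did not overlap, and the difference ranged from 4.14 to 8.92 percentage points when single libraries were left out. The CSK to SRC family ratio was 0.232 and 0.267 in TF1-BA and 0.318 and 0.406 in TF1-BAR. With YES1 left out of the family sum the direction turned, and the ratio was 0.585 and 0.605 in TF1-BA and 0.491 and 0.566 in TF1-BAR. CSK itself did not pass the test, and the family sum under it was lower in both resistant libraries. The activity of CSK and the phosphorylation of the kinases were not measured here.

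Of 7 genes listed as related to the members, 5 passed the filter, 3 rose and 0 fell (limma adjusted p under 0.05, with 4 in either direction at an unadjusted p under 0.05 and 3 by limma voom), against 16.3% and 10.5% of all genes tested. Without either TF1-BA library 0 passed (3 at an unadjusted limma p under 0.05 in both fits). Their median log2 fold change with all libraries was 0.44. MATK, the CSK homologue of blood cells, was measured at 24.2 and 24.4 FPKM against 33.3 and 33.0 FPKM and rose by a log2 fold change of 0.44 (limma adjusted p = 0.0112). Without TF1-BA replicates 1 and 2 in turn, the limma adjusted p of MATK was 0.106 and 0.102.

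ABL1, the kinase that imatinib targets within BCR-ABL, was measured at 41.1 and 42.9 FPKM in TF1-BA and 84.0 and 90.3 FPKM in TF1-BAR, and BCR at 14.5 and 14.9 FPKM against 26.1 and 31.1 FPKM. The ABL1 row rose by a log2 fold change of 1.04 (standard error 0.0669, limma adjusted p = 0.00374) and the BCR row by 0.93 (standard error 0.101, limma adjusted p = 0.00774). Both rows can hold reads of the BCR-ABL transcript. Without TF1-BA replicates 1 and 2 in turn, the limma adjusted p was 0.0525 and 0.0527 for ABL1 and 0.0713 and 0.0695 for BCR. The SRC to ABL1 ratio was 0.192 and 0.199 in TF1-BA and 0.172 and 0.188 in TF1-BAR, with both resistant libraries under both sensitive ones.

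**Figure D3:**
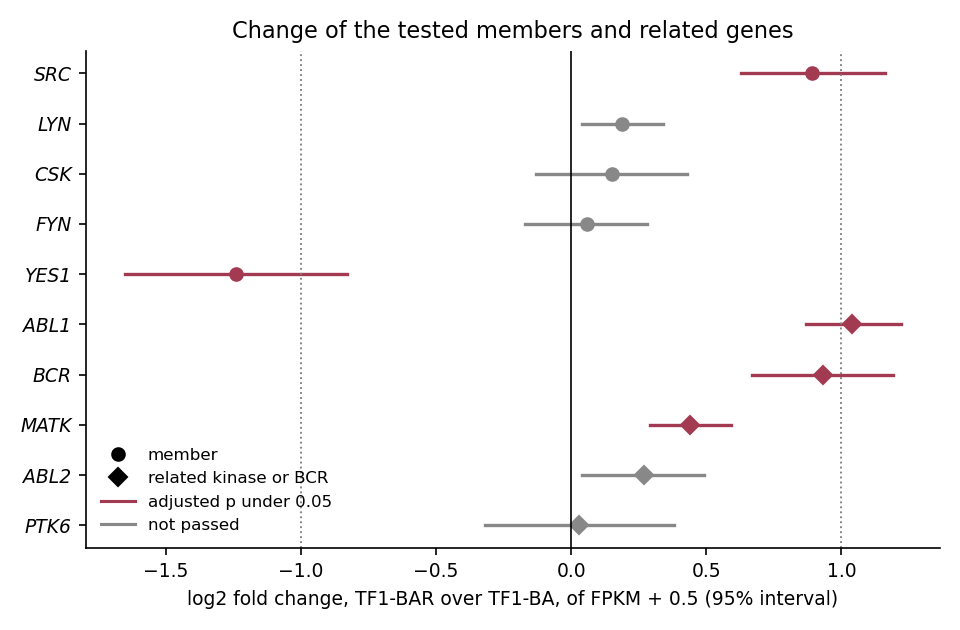
Log2 fold change of TF1-BAR over TF1-BA with its 95% interval for the tested members (circles) and for related kinases and BCR (diamonds), with dotted lines at −1 and 1 marking a 2-fold change. YES1 (−1.24) is the only one of these genes whose interval lies under 0, and SRC (0.89), ABL1 (1.04), BCR (0.93) and MATK (0.44) passed the test above 0.

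The regulators list held 20 genes that set the state or place of SRC family kinases, and all 20 passed the filter. Of these 4 rose and 1 fell, 15 did not pass, and 0 changed by 2-fold or more (limma, 10 at an unadjusted p under 0.05, and also 0 by limma voom). At the adjusted p alone, limma voom passed 10 of the 20, and 16.3% of all genes tested rose and 10.5% fell by limma. With a library left out, 0 passed without either TF1-BA library or TF1-BAR replicate 2 (5, 6 and 6 at an unadjusted limma p under 0.05). The median log2 fold change of the list was 0.18. PAG1, the membrane adaptor that recruits CSK to SRC family kinases, was measured at 4.15 and 4.72 FPKM in TF1-BA and 6.57 and 7.14 FPKM in TF1-BAR and rose by a log2 fold change of 0.58 (limma adjusted p = 0.0187). PTPRA, the receptor phosphatase that opens SRC by removing the tail phosphate, was measured at 24.2 and 22.0 FPKM against 32.3 and 32.6 FPKM and rose by a log2 fold change of 0.48 (limma adjusted p = 0.0140). PTPRC had 42.5 and 44.3 FPKM in TF1-BA and 38.4 and 35.6 FPKM in TF1-BAR. Its log2 fold change of −0.23 did not pass (limma adjusted p = 0.0682), and it is named here after its values were seen.

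SIRPA, a myeloid receptor whose tyrosines are phosphorylated by SRC family kinases, had 2.58 and 2.56 FPKM in TF1-BA and 3.93 and 3.83 FPKM in TF1-BAR and rose by a log2 fold change of 0.51 (limma adjusted p = 0.0188). PTPRJ, a receptor phosphatase that acts on SRC family kinases in platelets and leukocytes, was measured at 4.33 and 4.44 FPKM in TF1-BA and 3.04 and 2.83 FPKM in TF1-BAR. It fell by 0.51 on the log2 scale (limma adjusted p = 0.0197) and was the only regulator that passed the test as lower. Leaving out either TF1-BA library or TF1-BAR replicate 2 ended the calls of these 4 regulators, with limma adjusted p of up to 0.128 for PAG1, 0.114 for PTPRA, 0.132 for SIRPA and 0.144 for PTPRJ, and SIRPA also lost its call without TF1-BAR replicate 1 (0.0568). Without the filter on low genes the limma adjusted p was 0.0626 for PAG1, 0.0561 for SIRPA and 0.0589 for PTPRJ. PTPRA and SIRPA lie on chromosome 20, like SRC, where 46.8% of tested genes rose at a median log2 fold change of 0.39, and their own changes exceeded this median by 0.09 and 0.12. The part of this chromosome-wide difference in their changes was not tested.

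Of 48 listed substrates and adaptors, 47 had a row and 44 passed the filter. Of these 44, 10 rose, 8 fell and 26 did not pass, with a median log2 fold change of 0.06, against 16.3% and 10.5% of all genes that rose and fell. In place of these 18 calls in either direction, there were 2 without TF1-BA replicate 1, 1 without TF1-BA replicate 2 and 6 without TF1-BAR replicate 2, and limma voom gave 28. A change of 2-fold or more was called for 4 of them, 3 higher and 1 lower, against 3.05% and 1.69% of all genes tested. ZAP70, the kinase of T cells that is activated by LCK, had 1.43 and 1.34 FPKM in TF1-BA and 7.34 and 7.91 FPKM in TF1-BAR, a rise of 2.11 in log2 (limma adjusted p = 0.00182), in libraries with at most 1 fragment of LCK. PRAM1, an adaptor of myeloid cells, rose by 1.70 in log2 from 1.33 and 1.48 FPKM to 5.33 and 6.03 FPKM (limma adjusted p = 0.00384). NEDD9, a scaffold of the CAS family at focal adhesions, had 1.07 and 1.6 FPKM against 3.38 and 3.82 FPKM and rose by 1.17 in log2 (limma adjusted p = 0.0127). CAV1, the caveolar protein in which a tyrosine is phosphorylated by SRC, had 2.77 FPKM in both TF1-BA libraries and 0.606 and 0.747 FPKM in TF1-BAR and fell by 1.48 in log2 (limma adjusted p = 0.00565). ZAP70 passed in all 4 fits with a library left out. Without TF1-BA replicate 1 the limma adjusted p was 0.0721 for NEDD9 and 0.0589 for CAV1, without TF1-BA replicate 2 it was 0.0565 for NEDD9, 0.0600 for CAV1 and 0.0527 for PRAM1, and without TF1-BAR replicate 2 it was 0.0801 for NEDD9. NEDD9 also had a limma adjusted p of 0.0611 without the filter on low genes and a log2 fold change of 0.99 with a pseudocount of 1, under 2-fold.

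Of 27 listed receptors that signal through SRC family kinases, 23 passed the filter, with a median log2 fold change of 0.18. CSF1R passed it only through TF1-BAR. Besides CSF1R, 7 receptors rose, 2 fell and 13 did not pass (limma), against 16.3% and 10.5% of all genes that rose and fell. Over the whole list the 10 calls in either direction became 3 without TF1-BA replicate 1, 0 without TF1-BA replicate 2 (10 at an unadjusted limma p under 0.05), 7 without TF1-BAR replicate 2 and 13 by limma voom. A change of 2-fold or more was called for KIT, FCER1A and MS4A2, which makes 3 receptors with CSF1R left aside, against 3.05% of all genes tested that were called higher and 1.69% lower. KIT, the stem cell factor receptor and itself a target of imatinib, rose by 1.12 in log2 from 28.4 and 25.4 FPKM to 58.7 and 59.3 FPKM (limma adjusted p = 0.00409). FCER1A, the IgE-binding chain of the receptor that LYN phosphorylates, was measured at 25.6 and 24.6 FPKM against 58.8 and 56.1 FPKM (log2 fold change 1.18, limma adjusted p = 0.00289). Under or near the filter, CSF1R, the receptor of macrophage colony-stimulating factor, had 0.215 and 0.326 FPKM in TF1-BA and 1.34 and 1.32 FPKM in TF1-BAR, while CD36, a scavenger receptor, had 75 and 65 fragments in TF1-BA and 11 and 7 fragments in TF1-BAR and did not reach the filter. CD36 was thus 7.38-fold lower in TF1-BAR by its mean FPKM (0.413 against 0.056 FPKM), and is named here after its values were seen. MS4A2, the beta chain of the IgE receptor, rose from 0.884 and 1.03 FPKM to 3.03 and 2.18 FPKM (log2 fold change 1.08, limma adjusted p = 0.0165). FCER1G, the gamma chain of this receptor, did not pass (limma adjusted p = 0.77). It had 31.7 and 34.3 FPKM in TF1-BA and 30.7 and 33.7 FPKM in TF1-BAR. The 2 receptors that fell were TYROBP (log2 fold change −0.97, limma adjusted p = 0.00514) and ITGB1 (−0.57, limma adjusted p = 0.00605). FCER1G, TYROBP and ITGB1 are named here after their values were seen. KIT and FCER1A had a limma adjusted p of 0.0527 without TF1-BA replicate 2. MS4A2 had 0.102 without TF1-BA replicate 1, 0.0896 without TF1-BA replicate 2 and 0.0693 without the filter on low genes, and its log2 fold change was 0.87 with a pseudocount of 1, 0.96 with quantile normalization and 0.88 without TF1-BAR replicate 1 (limma adjusted p = 0.0471), all under 2-fold.

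**Figure D4:**
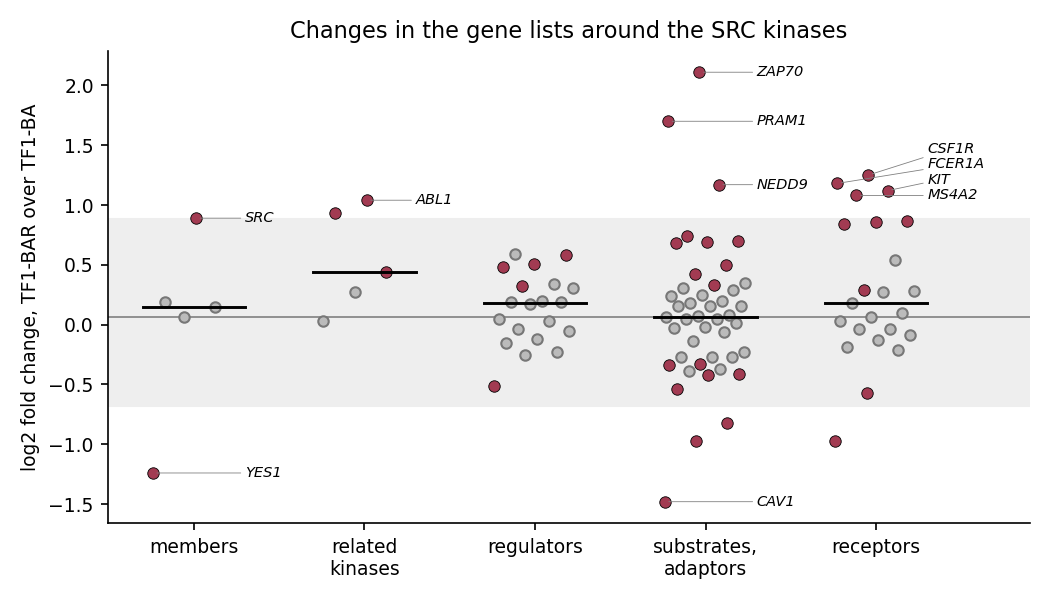
Log2 fold change of every tested gene in 5 lists, with coloured points for an adjusted p under 0.05, a black bar at each list's median, a grey line at the median of all tested genes (0.07) and a grey band that leaves out the lowest and the highest 5% of them (−0.68 to 0.88). Of the members, YES1 lies under the band and SRC at its upper edge. CSF1R was tested only because of its TF1-BAR level, and receptors under the filter, such as CD36, are not drawn.

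SRC lies on a chromosome with a higher median in TF1-BAR. Of 440 tested genes of chromosome 20, 46.8% rose and 3.18% fell, and their median log2 fold change was 0.39. The share that rose was 1.14% and 0.682% without TF1-BA replicates 1 and 2 in turn, 37.7% and 16.8% without TF1-BAR replicates 1 and 2 in turn, and 12.2% of 796 genes, with a median of 0.22, without the filter on low genes. When single libraries were left out, the median of chromosome 20 lay between 0.36 and 0.43. Of the 440 genes, 32 passed the filter only through TF1-BAR and 5 only through TF1-BA. With the 32 left out, 196 genes of chromosome 20 rose, against 206 with them. The change of SRC exceeded the chromosome median of 0.39 by 0.50. Within 500 kb of either end of SRC, 6 of 11 tested genes rose and 0 fell (limma), with a median log2 fold change of 0.39. By their positions, NNAT and AL109614.1 both lie inside BLCAP, and all of these rose, so that their rows share 1 locus. NNAT, 1 of the 6, passed the filter only through TF1-BAR, where it was higher (0.392 against 1.7 FPKM), which leaves 5. Among these were BLCAP (0.96, limma adjusted p = 0.00634), RPN2 (0.62, limma adjusted p = 0.0107) and CTNNBL1 (0.57, limma adjusted p = 0.00675), named here after their values were seen. Without TF1-BA replicates 1 and 2 in turn, 0 of these neighbours passed the limma adjusted p (6 and 5 were higher at an unadjusted p under 0.05, and 6 by limma voom on all libraries), and without TF1-BAR replicates 1 and 2 in turn 4 and 3 passed. Without the filter on low genes 2 passed. The part of the chromosome-wide difference in the change of SRC was not tested.

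YES1 gave another picture. On chromosome 18, 10.4% of 201 tested genes rose and 6.47% fell, the median log2 fold change was −0.01, and the change of YES1 minus this median was −1.23. Its 4 tested neighbours within 500 kb had log2 fold changes of −0.25 (ENOSF1), −0.05 (TYMS), 0.01 (THOC1) and 1.09 (ADCYAP1), and of these ADCYAP1 rose (limma adjusted p = 0.00439). At an unadjusted limma p under 0.05, 2 of the 4 passed, and by limma voom also 2. Around LYN, 0 of 6 tested neighbours passed the test, around FYN 1 of 8 fell, and around CSK 6 of 19 rose and 2 fell. For LYN, 1 neighbour had an unadjusted limma p under 0.05 and 1 passed by limma voom. Among the 8 neighbours of FYN, Z97989.1 passed the filter only through TF1-BAR (0.448 against 1.66 FPKM), and its change is not given as a result. Beside these counts, 16.0% rose and 9.13% fell of all tested genes on the chromosome of LYN, 18.2% and 12% on that of FYN and 14.8% and 9.59% on that of CSK, against 16.3% and 10.5% of all genes tested. The chromosome medians were 0.07 for LYN, 0.06 for FYN and 0.08 for CSK.

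**Figure D5:**
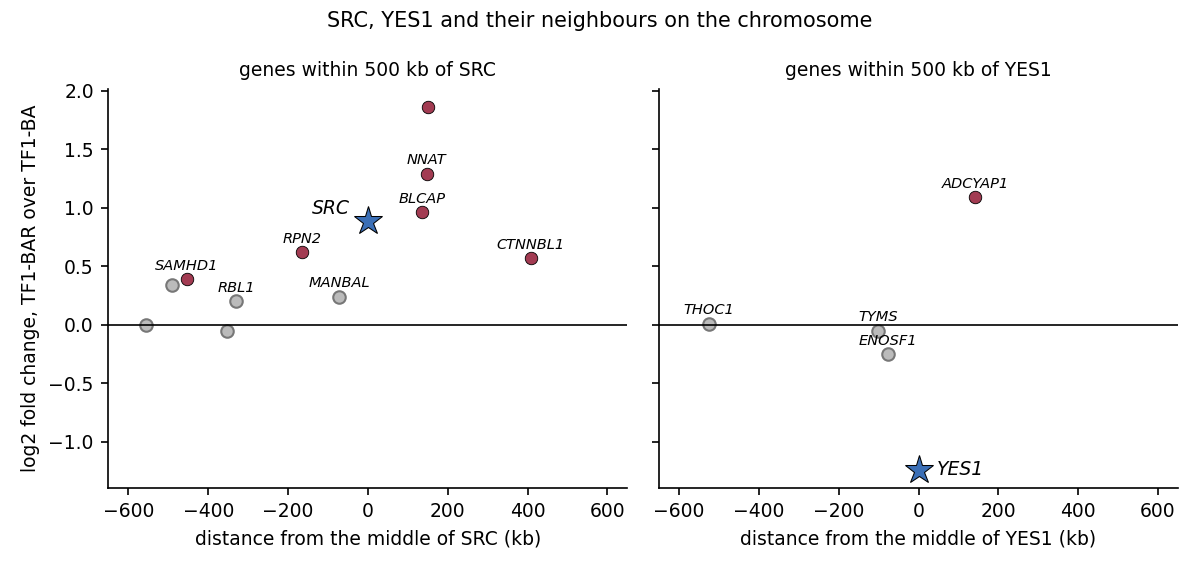
Log2 fold change of the tested genes within 500 kb of either end of SRC (left) and YES1 (right) against the distance in kb from the middle of each kinase gene, which is drawn as a star, with coloured points for an adjusted p under 0.05. Around SRC 6 of 11 neighbours rose, with NNAT tested only because of its TF1-BAR level. NNAT and AL109614.1 lie inside BLCAP. Around YES1 the only coloured neighbour, ADCYAP1, is higher and no neighbour lies near −1.24.

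For each tested member the genes most like it in level and change were found by the Euclidean distance between log2(FPKM + 0.5) values over the 4 libraries. The gene nearest to SRC was its neighbour BLCAP (distance 0.0801), followed by JAK3, the kinase of cytokine receptors with the common gamma chain, at 7.85, 8.56, 15 and 15.6 FPKM (distance 0.129). YES1 had no gene as close. Its nearest were OAT, ornithine aminotransferase, at a distance of 0.329 and CCNB2, a mitotic cyclin, at 0.372. LYN was nearest to EIF3M (distance 0.0363) and DARS (0.0466), FYN to SIRT2 (0.0498) and MRPS23 (0.0595), and CSK to C6orf106 (0.0558) and RPS7P11 (0.113). Likeness of this kind was taken over 4 libraries from 2 cell lines and is a description.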

How the data were processed

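RNA was sequenced in 2 TF1-BA and 2 TF1-BAR libraries, prepared with the NEBNext Ultra kit after TRIzol extraction. The authors deposited FPKM per gene and library, without log transformation. The submitters' processing notes name TopHat2 2.0.13, Cufflinks 2.2.0, Cuffdiff 2.2.0 and the build GRCh38. The annotation release and the strand setting of the counting are not given in the sources used here. Samples were grouped by their labels.

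FPKM were tested as log2(FPKM + 0.5) with limma 3.58.1 (lmFit, eBayes with trend, two-sided) in R 4.3.3, over the 15519 genes whose mean reached 0.5 FPKM, with Benjamini-Hochberg adjustment. This scale understates the change of low genes. As in the study's methods, calls needed a log2 fold change of 1 or more in size and an adjusted p below 0.05. The study's count test was not the main test, since the deposited values are FPKM. The script was tested on simulated data. Shares were compared by an exact permutation test over libraries.

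Fragments were recovered as the whole numbers behind the FPKM values (tolerance 0.01). Of 30853 genes above 0, 14816 were whole at the GENCODE 44 exon length, 16028 at a fitted length and 9 at neither. The fitted length was the shortest that gave whole numbers, so that fragment numbers at such a length can be too low. Of 300 genes whole at the GENCODE 44 exon length, 0 were whole with wrong library sizes. Fitted lengths had no such check. The library sizes were 18042299 and 15465497 fragments in TF1-BA and 15761642 and 16074303 in TF1-BAR.

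The members, gene lists and named-gene rule were chosen with earlier results of these data known. Some genes that belong to these lists are not reported here. Named were all members, BCR, ABL1 and, per list, up to 4 called genes per direction by size of change, filled up to 4 with genes of adjusted p under 0.05, and the 2 genes most like each tested member. Alternatives were pseudocounts of 1 and 0.1, other filters, upper-quartile, TPM and quantile scaling, eBayes without trend or robust, a replicate block, each library left out, and limma voom on recovered fragments, chosen after seeing the data.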

Additional observations from a re-analysis of the deposited data

How the results depend on the processing

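With 2 libraries per line, the calls depended on which libraries entered the fit. When single libraries were left out, with the lone library of a line assumed to vary like the other line, between 0 and 2 members were called at 2-fold or more (1 with all libraries) and between 0 and 2 passed the adjusted p alone (2 with all libraries). At an unadjusted limma p under 0.05, 2 members passed without either TF1-BA library and 3 without TF1-BAR replicate 2. Without single libraries, the log2 fold change of SRC ranged from 0.78 to 1.00 and that of YES1 from −1.43 to −1.05. The called genes of the 4 pathway lists ranged from 1, without TF1-BA replicate 2, to 10 (9 with all libraries) and those of the whole table from 42, without the same library, to 783 (737 with all libraries). Without TF1-BA replicate 1 the table gave 144 and without TF1-BAR replicate 2 it gave 427. Without the filter, where 30853 genes were tested, 0 members were called and 1 passed the adjusted p (limma, 3 at an unadjusted p under 0.05), and YES1 had a log2 fold change of −1.24 (limma adjusted p = 0.0539). By limma voom 1 member was called and 2 passed the adjusted p. With the adjusted p alone as the rule, 2 members were called. Over the whole table, a pseudocount of 1 gave 487 calls and limma voom 1143. FYN turned to −0.031 under upper-quartile scaling and to −0.001 under quantile normalization, and LYN passed under TPM at 0.263. The cause of these changes was not tested. A replicate block, whose numbers rest on titles alone (correlation of same-numbered deviations 0.0646), gave 755 calls in the table, 1 called member and 2 with an adjusted p under 0.05, and changed no call of a member. The scalings moved the median log2 fold change of all genes from 0.07 to between −0.01 and 0.14. LCK and FGR, with at most 12 fragments, did not reach the filter, and a difference between the lines was not detectable for them at this depth.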
